A study of Mus musculus with 6 samples.

Results

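The proteasome subunit genes described here are all genes whose single symbol in the array's annotation starts with Psma, Psmb, Psmc or Psmd and ends in a number. The interferon-inducible Psmb8, Psmb9 and Psmb10 were left out of this set and are described as related genes. The rule found 36 genes among the 18193 genes that had a probe set with 1 symbol, and each was represented by its brightest probe set over the 6 arrays. By class, 16 encode the core particle (8 Psma and 8 Psmb genes), 6 encode ATPases (Psmc) and 14 carry a Psmd symbol. The Psmd genes were divided into 3 base subunits without ATPase activity (Psmd1, Psmd2, Psmd4), 8 lid subunits (Psmd3, Psmd6, Psmd7, Psmd8, Psmd11, Psmd12, Psmd13, Psmd14) and 3 factors that assist assembly of the base (Psmd5, Psmd9, Psmd10).

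The proteasome is the main protease for proteins tagged with ubiquitin in the cytosol and nucleus. Its core is a barrel of stacked rings of alpha and beta subunits with the active sites inside, and a regulatory particle at its ends binds ubiquitin, removes it, and unfolds and threads the substrate through a ring of ATPases. Heat damages proteins and raises the demand for their removal or refolding, while interferon signals during inflammation replace the standard catalytic subunits by inducible ones.

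RNA came from primary fibroblast cultures of 2 independent ICR mouse embryos at embryonic day 15.5, measured on 1-colour Affymetrix GeneChip mouse genome arrays. Control cells stayed at 37 °C without treatment. LPS cells received lipopolysaccharide, a bacterial cell wall component, at 1 μg/ml for 4 h. HS+LPS cells spent 1 h at 42 °C as a heat shock before the same 4 h of LPS. Both cultures went through all 3 conditions, so each group had 2 arrays and the culture numbers pair them. No group was heated without LPS, so HS+LPS against LPS gives heat on a background of LPS, and heat alone was not measured. The cells are ICR fibroblasts without a genetic change named in the labels, and the p-values rest on 2 cultures.

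All 10 fibroblast markers, among them Col1a1 and Col1a2, lay above the noise level on every array. Of the markers of other cell types, 4 of 7 for macrophages, 2 of 5 for endothelium, 2 of 6 for epithelium, 3 of 5 for skeletal muscle and 4 of 4 measured for neural cells did too. The summed signal of the macrophage list was 328 to 414 in culture 1 and 203 to 221 in culture 2, against 26959 to 36777 for the fibroblast list. Within the fibroblast list, Lum (119 and 1699), Dcn (333 and 1862) and Pdgfra (302 and 1036) differed most between cultures 1 and 2 in Control. Pdgfrb read 1608 and 1549 in LPS and 883 and 911 in HS+LPS. Pdgfra, Dcn and Lum were also lower in HS+LPS than in LPS in both cultures. Col1a1, Col1a2, Thy1, Fn1 and Vim were higher, and Col3a1 was mixed. The summed signals of 4 other lists were higher in HS+LPS than in LPS in both cultures. For the neural list they were 507 and 351 in Control, 456 and 261 in LPS, and 635 and 420 in HS+LPS, mostly from Map2. For skeletal muscle they were 354 and 296, 312 and 258, and 447 and 372, mostly from Acta1, with Myod1 and Myog at 0.85 to 10.6. For epithelium they were 54.3 and 61.3, 52.2 and 96.3, and 89.3 and 126, and for endothelium 36.2 and 43.6, 23.0 and 47.8, and 47.3 and 58.1. The part of such cells in the comparisons with HS+LPS was not tested. The treatments showed in their known responders. Hspa1a, an inducible Hsp70 chaperone, had mean signals of 57.9 in Control, 62.4 in LPS and 4984 in HS+LPS. Dnajb1, its co-chaperone, had 596, 553 and 5604. Cxcl10, a chemokine, had 9.54, 510 and 41.1. Values are signal intensities that the authors scaled to a common mean, so a change in total mRNA per cell cannot be seen. In bulk RNA, a shift in the makeup of the culture and a change of RNA per cell cannot be told apart.

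Of the 36 genes, 34 were above the noise level on all 6 arrays, the noise level being the brightest of 12 Bacillus subtilis probe sets on that array (4.27 to 7.67). Their mean signals ran from 172 to 2709. The remaining pair are the tissue-restricted members. Psmb11, the thymus-specific beta subunit, read 0.6 to 6.7 and was above noise on 0 of 6 arrays. Psma8, the alpha subunit of the germ-line proteasome, read 5.97 to 9.37 and was above noise on 4 of 6. Psmb11 fell under the filter on low values, which left 35 tested members. Over the 35, the median of the mean signals was 1126, where the median of the 12917 genes tested was 103.

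The proteasome genes as a group moved little. In no comparison did any of the 35 differ by 1.5-fold or more, while 7.92% of all genes did so for LPS against Control, 17.9% for HS+LPS against LPS and 17.3% for HS+LPS against Control. The interquartile range of the log2 differences was 0.13, 0.19 and 0.16 in the members and 0.29, 0.51 and 0.46 over all genes. The members also had smaller errors, with a median standard error of 0.12 for a log2 difference against 0.23 over all genes.

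**Figure D1:**
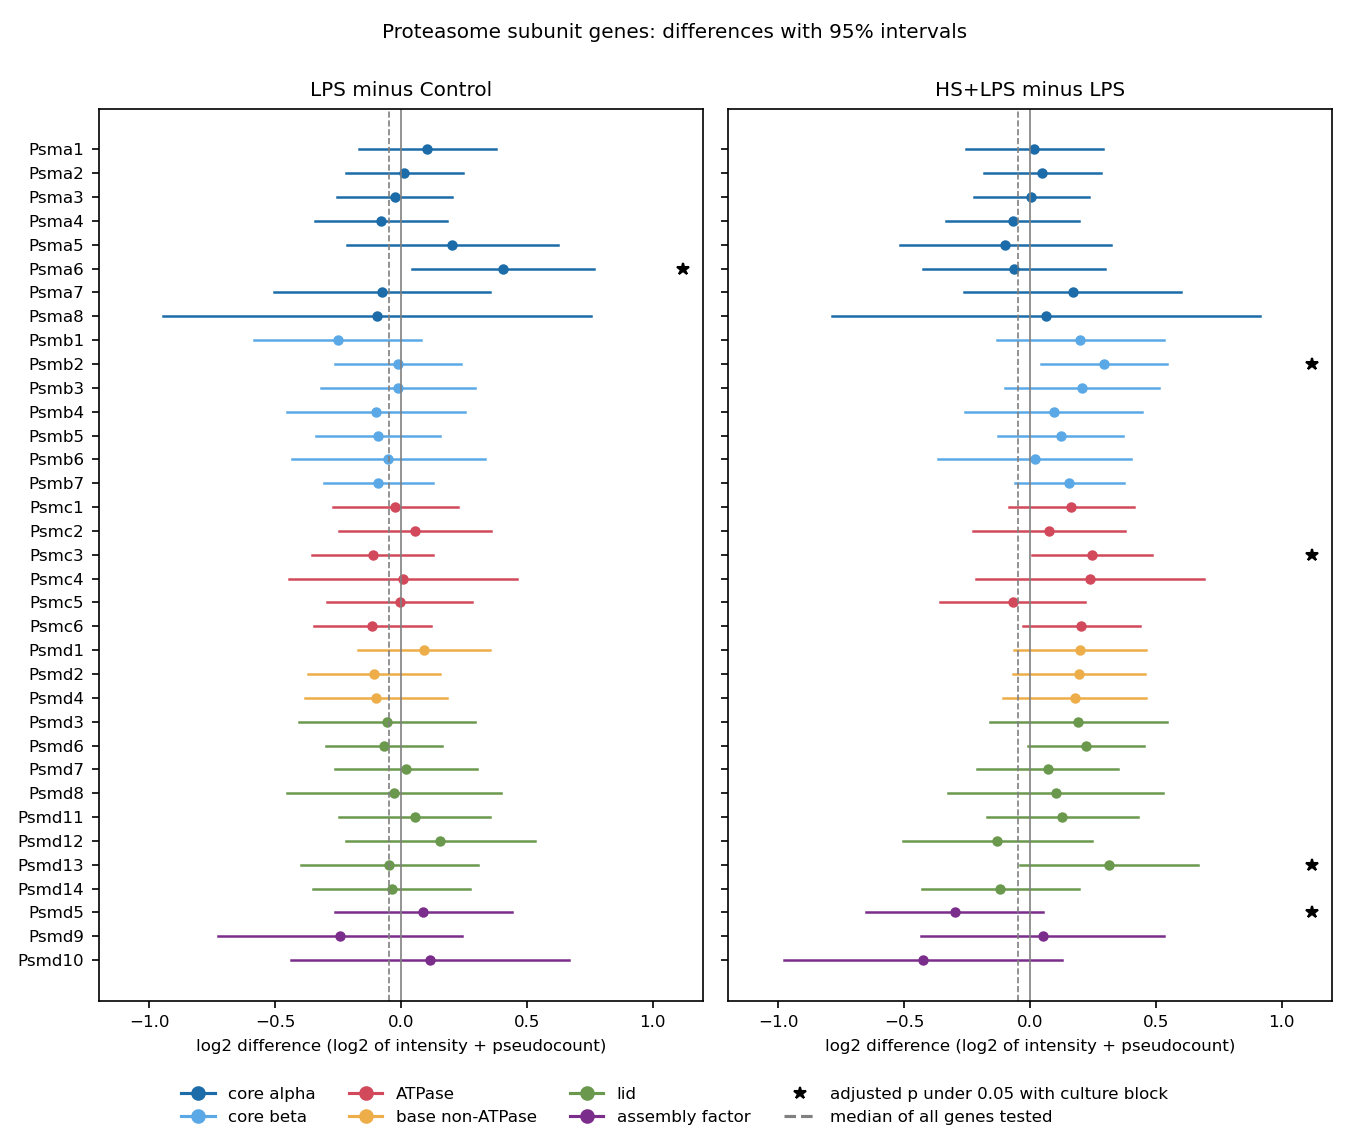
Log2 difference of each of the 35 tested subunit genes (horizontal axis, log2 of intensity plus pseudocount) for LPS minus Control (left) and HS+LPS minus LPS (right), with 95% intervals of the fit without the culture block; colours give the subunit class. The dashed line is the median of all genes tested and stars mark genes past the threshold with the culture as a block, 1 on the left (Psma6) and 4 on the right (Psmb2, Psmc3, Psmd13, Psmd5).

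For the test, 0 of 35 members passed an adjusted p of 0.05 in any of the 3 comparisons in the limma fit without the culture block (Benjamini-Hochberg over 12917 genes). The background of that fit was 0.147% of genes higher and 0.0% lower for LPS against Control, 0.511% and 0.844% for HS+LPS against LPS, and 0.17% and 0.00774% for HS+LPS against Control. At an unadjusted p under 0.05 it had 1, 2 and 2 members higher and 0 lower, where 3.18%, 4.95% and 4.47% of all genes were higher and 1.69%, 11.9% and 11.8% lower. With the culture as a block, which takes out the difference between the embryos, 1 member was higher in LPS than in Control (background 2.04% of genes higher and 0.704% lower). For HS+LPS against LPS, 3 members were higher and 1 lower (background 6.32% and 12.6%). For HS+LPS against Control, 3 were higher and 0 lower (background 5.06% and 12.1%). The 8 calls belong to 6 genes, Psma6, Psmb2, Psmc3, Psmd1, Psmd13 and Psmd5, and "rose" and "fell" below refer to the fit with the block.

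For 4 of these 6 genes (Psma6, Psmd1, Psmd5 and Psmd13) the upstream sequence is shown as 250 bases before the annotated start, from RefSeq on GRCm38.p6, 5′ to 3′ on the gene's strand. Psma6 is shown at both of its annotated starts, since it was the member called with LPS, Psmd5 and Psmd13 were called in HS+LPS against LPS, and Psmd1 in HS+LPS against Control. Psmb5 and Psmd4 are added as the members with a match to a heat shock element pair. Capitals mark matches to CCAAT (or ATTGG on the other strand), to the NF-kappaB consensus in a loose form with free central bases, to the heat shock factor pairs GAANNTTC and TTCNNGAA, and to TGACNNNGC, the core of the antioxidant element bound by Nfe2l1 and Nfe2l2. The intervals are chr12:55383972-55384221 and chr12:55398575-55398824 (Psma6, plus strand), chr1:86064369-86064618 (Psmd1, plus), chr7:140882144-140882393 (Psmd13, plus), chr2:34870963-34871212 (Psmd5, minus), chr14:54617996-54618245 (Psmb5, minus) and chr3:95042615-95042864 (Psmd4, minus).
Psma6, first start: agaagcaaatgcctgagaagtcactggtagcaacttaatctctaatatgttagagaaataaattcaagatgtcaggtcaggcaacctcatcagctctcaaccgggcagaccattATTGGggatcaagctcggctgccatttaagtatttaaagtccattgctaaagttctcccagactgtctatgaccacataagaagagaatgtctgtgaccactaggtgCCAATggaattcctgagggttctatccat
Psma6, second start: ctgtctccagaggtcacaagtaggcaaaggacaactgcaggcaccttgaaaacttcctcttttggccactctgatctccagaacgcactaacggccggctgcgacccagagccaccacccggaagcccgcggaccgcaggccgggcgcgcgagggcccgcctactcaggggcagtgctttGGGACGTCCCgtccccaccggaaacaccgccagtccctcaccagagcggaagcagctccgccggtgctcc
Psmd1: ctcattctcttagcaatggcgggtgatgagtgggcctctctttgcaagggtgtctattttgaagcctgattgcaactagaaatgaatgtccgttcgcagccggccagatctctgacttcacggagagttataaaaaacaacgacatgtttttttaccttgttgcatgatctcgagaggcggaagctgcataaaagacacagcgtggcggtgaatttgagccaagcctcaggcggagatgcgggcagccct
Psmd13: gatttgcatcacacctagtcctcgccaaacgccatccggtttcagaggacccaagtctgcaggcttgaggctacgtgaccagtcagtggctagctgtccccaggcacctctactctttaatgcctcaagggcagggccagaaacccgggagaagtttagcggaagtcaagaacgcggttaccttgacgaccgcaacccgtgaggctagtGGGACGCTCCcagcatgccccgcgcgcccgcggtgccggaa
Psmd5: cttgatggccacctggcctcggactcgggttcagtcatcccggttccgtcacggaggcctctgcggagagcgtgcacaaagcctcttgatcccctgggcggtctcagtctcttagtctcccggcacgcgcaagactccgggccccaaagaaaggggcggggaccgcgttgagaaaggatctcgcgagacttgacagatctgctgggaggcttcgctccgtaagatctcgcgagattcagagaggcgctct
Psmb5: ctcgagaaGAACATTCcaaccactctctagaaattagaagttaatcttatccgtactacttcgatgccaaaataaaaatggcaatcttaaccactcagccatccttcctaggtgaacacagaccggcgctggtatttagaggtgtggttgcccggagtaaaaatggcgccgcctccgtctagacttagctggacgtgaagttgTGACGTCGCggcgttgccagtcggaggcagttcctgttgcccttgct
Psmd4: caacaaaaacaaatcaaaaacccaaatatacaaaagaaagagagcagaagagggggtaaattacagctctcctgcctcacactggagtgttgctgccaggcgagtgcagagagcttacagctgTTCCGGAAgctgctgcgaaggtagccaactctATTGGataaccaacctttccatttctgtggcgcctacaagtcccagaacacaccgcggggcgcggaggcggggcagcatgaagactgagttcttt
Psma6 has the NF-kappaB match at its second start, beginning at base -70, and CCAAT matches at -136 and -29 of the first. Psmd13 has an NF-kappaB match at -41, and the bases shown for Psmd1 and Psmd5 hold no match to any of these motifs. Psmb5 has GAANNTTC at -242 and TGACNNNGC at -47, and Psmd4 has TTCNNGAA at -127 and CCAAT at -95.

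Promoter windows of 300 bases (250 before and 50 after a start) were used for 29 of the 36 members, all except Psma8, Psmb1, Psmb2, Psmb7, Psmc3, Psmd3 and Psmd7. A heat shock factor pair, in either form, was in 2 of the 29 (6.90%), against 17.0% of 27025 genes with a window. GAANNTTC was in 3.45% of members and 9.04% of genes, and TTCNNGAA in 3.45% and 9.60%. TGACNNNGC was in 5 members (Psmb5, Psmb6, Psmc6, Psmd9, Psmd12), which is 17.2% against 14.0%. CCAAT was in 12 (41.4% against 41.1%). The NF-kappaB consensus, added after the values had been seen, was in 5 (Psma6, Psma7, Psmd11, Psmd12, Psmd13), which is 17.2% against 9.55%. Both strands were searched, TGACNNNGC and the palindromic forms can overlap other matches, and a match says only that the letters are present.

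The alpha subunits form the outer rings of the core and its gate. Psma6 read 1525 and 1721 in Control (cultures 1 and 2), 1970 and 2342 in LPS, and 1869 and 2255 in HS+LPS. Both LPS arrays and both HS+LPS arrays lay above both Control arrays, while the LPS and HS+LPS ranges overlapped. Psma6 rose in LPS against Control by 0.41 on the log2 scale (1.32-fold, SE 0.07 with the block; 0.37 and 0.44 in the 2 cultures; limma adjusted p = 0.0167 with the block and 0.909 without). In HS+LPS it rose against Control by 0.34 (0.29 and 0.39 in the 2 cultures; limma adjusted p = 0.0125 with the block and 0.334 without). Leaving out the HS+LPS array of culture 2, in the fit without the block, gave 0.21. That value sets culture 1 of HS+LPS against both Control arrays and does not use the pairing. For LPS and HS+LPS against Control, a second Psma6 probe set gave 0.47 and 0.34, and a dim one with signals of 49.1 to 70.5 gave 0.01 and 0.37. The probe set used is of the type open to cross-hybridisation, and the second one is not.

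In RefSeq's gene order, the protein-coding genes next to Psma6 are Prorp and Nfkbia. Nfkbia encodes IkappaBalpha, the inhibitor of NF-kappaB that NF-kappaB itself induces. It read 1271 and 1587 in Control, 3228 and 3245 in LPS, and 2402 and 2924 in HS+LPS, and rose in LPS by 1.19 (limma adjusted p = 0.000208 with the block). Prorp, which encodes a mitochondrial RNA-processing nuclease, differed by 0.14 for LPS against Control and fell by 2.15 in HS+LPS against LPS (limma adjusted p = 0.00112 with the block). Ppp2r3c, a further neighbour of Psma6, differed by 0.05 for LPS against Control and by -0.0018 for HS+LPS against LPS. The neighbours of the other genes called with the block are not described. Whether the position of Psma6 bears on its change was not tested.

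Of the other alpha subunits none passed the test. Psma5 read 1265 and 1403 in Control, 1417 and 1663 in LPS, and 1241 and 1658 in HS+LPS, a log2 difference of 0.20 for LPS against Control whose 95% interval ran from -0.22 to 0.62. Its second probe set gave 0.03. Psma3 read 2296 and 2473 in Control, 2379 and 2306 in LPS, and 2375 and 2328 in HS+LPS, and its 3 groups overlapped. Psma1, Psma2, Psma4 and Psma7 differed by between -0.08 and 0.11 for LPS against Control and between -0.07 and 0.17 for HS+LPS against LPS. The alpha class had a median log2 difference of -0.01 for LPS against Control and 0.01 for HS+LPS against LPS. Psma8, which read near the noise level, is counted in these and the other alpha and core medians.

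The beta subunits form the inner rings, and Psmb5, Psmb6 and Psmb7 hold the chymotrypsin-like, caspase-like and trypsin-like active sites. Psmb5 read 1273 and 1244 in Control, 1152 and 1211 in LPS, and 1335 and 1237 in HS+LPS. Psmb6 read 901 and 1061 in Control, 850 and 1049 in LPS, and 897 and 1018 in HS+LPS. Psmb7 read 2728 and 2714 in Control, 2616 and 2499 in LPS, and 2880 and 2818 in HS+LPS. None of these 3 genes passed the test in any comparison, and Psmb7 had both HS+LPS arrays above all others. For LPS against Control, the 95% interval without the block ran from -0.34 to 0.16 for Psmb5, from -0.43 to 0.33 for Psmb6 and from -0.31 to 0.13 for Psmb7.

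Of their interferon-inducible counterparts, Psmb8 and Psmb10 passed the test for LPS against Control with the block. Psmb8, which takes the place of Psmb5, read 48.9 and 64.9 in Control, 139 and 225 in LPS, and 44.4 and 82.8 in HS+LPS. It rose in LPS by 1.59 (limma adjusted p = 0.000908 with the block, 0.451 without) and fell by 1.49 in HS+LPS against LPS (0.000474 with the block, 0.124 without). Psmb10, which takes the place of Psmb7, read 142 and 205 in Control, 298 and 442 in LPS, and 131 and 220 in HS+LPS. It rose by 1.07 and fell by 1.08 (limma adjusted p = 0.000824 and 0.00029 with the block, 0.787 and 0.191 without). Psmb9, which takes the place of Psmb6, read 11.1 and 29.3 in Control, 34.0 and 41.0 in LPS, and 15.1 and 25.7 in HS+LPS. Its differences of 0.91 and -0.82 did not pass (limma adjusted p = 0.167 and 0.080 with the block). The LPS arrays of all 3 inducible genes lay above the Control array of the same culture, as for 24.7% of all genes. These 3 genes were listed with their values in these data known.

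**Figure D2:**
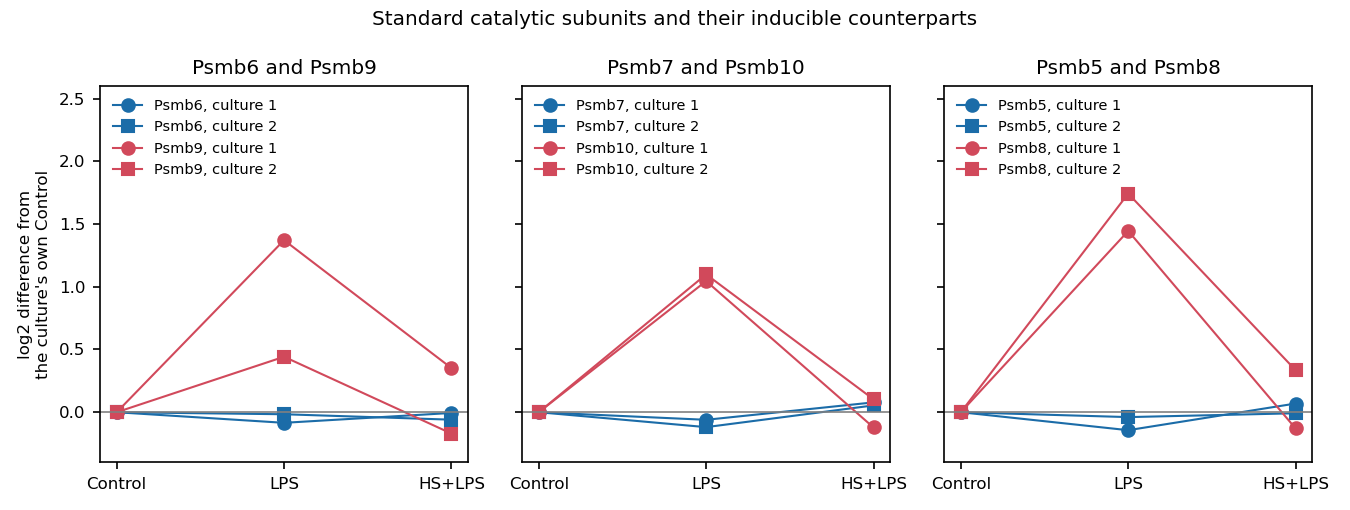
Log2 difference of each culture from its own Control (vertical axis, log2 of intensity plus pseudocount) in Control, LPS and HS+LPS for the 3 standard catalytic subunits (blue) and the inducible subunits that replace them (red); circles are culture 1 and squares culture 2, and each point is 1 array. Psmb8 and Psmb10 stand 1.05 to 1.74 above Control in LPS, while Psmb5, Psmb6 and Psmb7 lie between -0.14 and 0.08 in both conditions.

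Among the structural beta subunits, Psmb2 read 606 and 602 in Control, 606 and 591 in LPS, and 739 and 731 in HS+LPS. Both heated arrays lay above all arrays without heat, which differed little among themselves. Psmb2 rose in HS+LPS against LPS by 0.29 (1.23-fold; 0.28 and 0.31 in the 2 cultures; limma adjusted p = 0.0272 with the block, 0.233 without). It also rose against Control, by 0.28 (limma adjusted p = 0.0346 with the block). Psmb1 read 1272 and 1510 in Control, 1156 and 1172 in LPS, and 1232 and 1451 in HS+LPS, with differences of -0.25 for LPS against Control and 0.20 for HS+LPS against LPS that did not pass. Psmb3 and Psmb4 differed by 0.21 and 0.09 for HS+LPS against LPS. Their second probe sets gave 0.23 and 0.21, the Psmb4 one being of the type open to cross-hybridisation. For HS+LPS against Control that Psmb4 probe set gave 0.31, where the one used gave -0.006. In HS+LPS against LPS, 6 of the 7 tested beta subunits were higher in both cultures as deposited (31.0% of all genes), 3 after quantile normalization (33.2%) and 7 after centring each array on its median (43.8%). Their median was 0.16, 0.03 and 0.28 in these scalings.

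The ATPases Psmc1 to Psmc6 form the ring that unfolds substrates. Psmc3 read 1201 and 1261 in Control, 1115 and 1161 in LPS, and 1331 and 1370 in HS+LPS, so that its 3 groups did not overlap. It rose in HS+LPS against LPS by 0.25 (1.19-fold; 0.25 and 0.24 in the 2 cultures; limma adjusted p = 0.0396 with the block, 0.287 without). Against Control the difference was 0.13 and did not pass. Psmc6, with 1140 and 1121 in Control, 1041 and 1048 in LPS, and 1204 and 1201 in HS+LPS, had a similar order and a difference of 0.20 that did not pass (limma adjusted p = 0.0767 with the block). That order was not shared by its other probe sets. For LPS against Control the one used gave -0.11, a second gave 0.18 and a dim one gave 0.39. For HS+LPS against LPS the second gave 0.13 and the dim one 0.01.

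Psmc4 read 1261 and 928 in Control, 1217 and 975 in LPS, and 1319 and 1249 in HS+LPS. The cultures differed more in Control and LPS than in HS+LPS, and the difference of 0.24 for HS+LPS against LPS did not pass. Psmc2 read 1878 and 1812 in Control, 1745 and 2110 in LPS, and 1952 and 2097 in HS+LPS, and its LPS arrays spanned those of the other groups. Psmc5 read 702 and 668 in Control, 675 and 690 in LPS, and 696 and 609 in HS+LPS, and was the only ATPase with a negative mean difference for HS+LPS against LPS as deposited (-0.07). Psmc1 differed by 0.16 in that comparison. The ATPase medians were -0.01 for LPS against Control and 0.18 for HS+LPS against LPS.

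The base subunits without ATPase activity include the large scaffolds Psmd1 and Psmd2 and the ubiquitin receptor Psmd4. Psmd1 read 905 and 872 in Control, 996 and 898 in LPS, and 1076 and 1096 in HS+LPS. Both heated arrays lay above the other 4. Psmd1 rose in HS+LPS against Control by 0.29 (1.22-fold; 0.25 and 0.33 in the 2 cultures; limma adjusted p = 0.0346 with the block), and differed from LPS by 0.20 without passing. Psmd2 read 1594 and 1610 in Control, 1505 and 1472 in LPS, and 1824 and 1592 in HS+LPS. All 3 base genes were higher in both cultures in HS+LPS than in LPS as deposited (31.0% of all genes). Their mean differences were 0.18 to 0.20. After quantile normalization 2 of 3 were higher in both cultures (33.2% of all genes). The differences of Psmd2 and Psmd4 for LPS against Control were -0.11 and -0.10. The class median of -0.10 for that comparison is the value of the Psmd4 probe set used. A second Psmd4 probe set gave 0.04 there (0.07 and 0.02 in the 2 cultures). For HS+LPS against LPS it gave 0.13.

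The lid holds the deubiquitinase Psmd14 and its partner Psmd7, with Psmd3, Psmd6, Psmd8, Psmd11, Psmd12 and Psmd13 around them. Psmd13 read 466 and 467 in Control, 406 and 502 in LPS, and 534 and 592 in HS+LPS. The LPS arrays spanned the Control arrays and both heated arrays lay above them. It rose in HS+LPS against LPS by 0.31 (1.24-fold; 0.39 and 0.24 in the 2 cultures; limma adjusted p = 0.0481 with the block, 0.344 without). Leaving out the LPS array of culture 1, in the fit without the block, gave 0.16. That value sets both HS+LPS arrays against culture 2 of LPS and does not use the pairing. A second Psmd13 probe set gave 0.23, and the mean over its probe sets, dim ones included, gave 0.03.

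Psmd12 read 801 and 616 in Control, 793 and 775 in LPS, and 750 and 684 in HS+LPS, with overlapping Control and LPS ranges. Psmd8 read 2286 and 1878 in Control, 2330 and 1773 in LPS, and 2322 and 2047 in HS+LPS. Psmd3 read 408 and 339 in Control, 342 and 375 in LPS, and 426 and 393 in HS+LPS. In Psmd8 the cultures differed more than the conditions did. For Psmd14 the 2 cultures went opposite ways in HS+LPS against LPS (0.04 and -0.28). Psmd6 and Psmd7 differed by 0.22 and 0.07 for HS+LPS against LPS.

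For Psmd11 the probe sets disagreed. The one used gave 0.13 for HS+LPS against LPS, 2 others gave 0.07 and 0.11, and a further one, with 512 and 317 in LPS and 402 and 233 in HS+LPS, gave -0.39. Which transcript each of them reads was not tested. The lid median was -0.03 for LPS against Control and 0.11 for HS+LPS against LPS.

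The assembly factors Psmd5, Psmd9 and Psmd10 bind ATPases while the base is put together and are not part of the finished proteasome. Psmd5 read 438 and 386 in Control, 448 and 427 in LPS, and 389 and 324 in HS+LPS. Both heated arrays lay below both LPS arrays, and the HS+LPS range overlapped that of Control. Psmd5 fell by 0.30 in HS+LPS against LPS (0.813-fold; -0.20 and -0.39 in the 2 cultures; limma adjusted p = 0.0463 with the block, 0.365 without). Leaving out the HS+LPS array of culture 2, in the fit without the block, gave -0.17 and did not use the pairing. Psmd10, also called gankyrin, read 199 and 288 in Control, 226 and 299 in LPS, and 193 and 192 in HS+LPS. It differed by -0.43 for HS+LPS against LPS, the largest difference of any member, and did not pass (limma adjusted p = 0.0555 with the block). The cultures were apart by 0.52 on the log2 scale in Control and by 0.40 in LPS, and nearly equal in HS+LPS. Psmd9 read 170 and 210 in Control, 139 and 183 in LPS, and 154 and 177 in HS+LPS, with differences of -0.24 for LPS against Control and 0.05 for HS+LPS against LPS that did not pass.

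**Figure D3:**
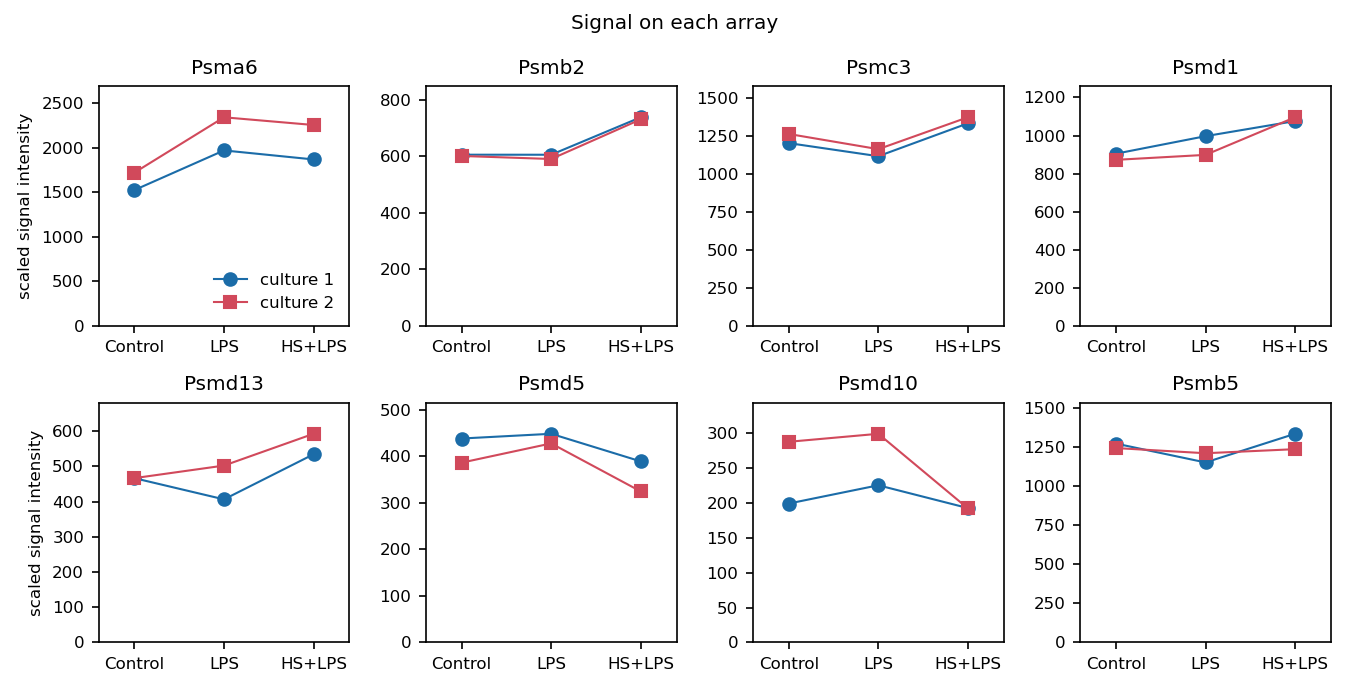
Scaled signal intensity (vertical axis, from 0) on each of the 6 arrays for the 6 genes called with the culture block and for Psmd10 and Psmb5; lines join the arrays of 1 culture, circles for culture 1 and squares for culture 2. Psmb2, Psmc3, Psmd1 and Psmd13 stand highest in both HS+LPS arrays, Psma6 is above Control in LPS and HS+LPS, and Psmd5 and Psmd10 are lowest in HS+LPS within each culture.

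Seen by class, HS+LPS against LPS gave medians of 0.06 for the core (15 tested), 0.18 for the ATPases (6) and 0.11 for the Psmd genes (14), against -0.05 for all genes. Within the finer classes the order was assembly factors at -0.30, alpha at 0.01, lid at 0.11, beta at 0.16, ATPases at 0.18 and the other base subunits at 0.20. Members were higher in both cultures in 21 of 35 cases and lower in 5, where all genes gave 31.0% and 40.7%. The HS+LPS and LPS arrays did not overlap for 16 members higher and 3 lower (17.9% and 28.8% of all genes). No test of a difference between classes was made, because the genes share the same 6 arrays and 2 cultures.

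The shift between HS+LPS and LPS depended on how the arrays were scaled. Centring each array on its median moved the all-gene median of HS+LPS against LPS from -0.05 to 0.08, and quantile normalization moved it to -0.02. The median of the 35 members was 0.10 as deposited, 0.03 after quantile normalization and 0.23 after centring. After quantile normalization 13 members were higher in both cultures and 10 lower (33.2% and 37.7% of all genes), and after centring 28 were higher and 2 lower (43.8% and 29.0%). The arrays of the 2 groups did not overlap for 8 members higher and 7 lower after quantile normalization (19.1% and 25.7% of all genes), and for 22 higher and 2 lower after centring (28.5% and 19.9%). The alpha median changed sign, from 0.01 to -0.12 after quantile normalization, and was 0.14 after centring. The beta, ATPase, other base and lid medians stayed positive under quantile normalization (0.03, 0.12, 0.11 and 0.01), and the assembly factor median stayed negative in all 3 scalings (-0.30, -0.28 and -0.17).

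**Figure D4:**
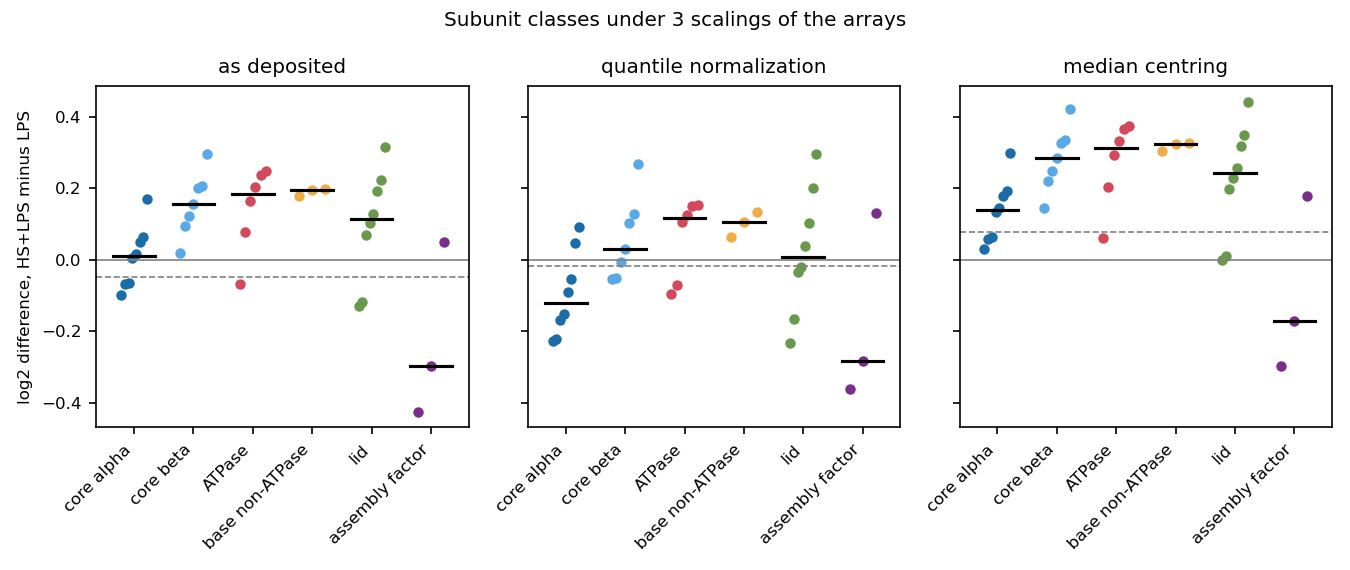
Log2 difference of HS+LPS minus LPS (vertical axis) for each tested subunit gene by class, with the values as deposited, after quantile normalization and after centring each array on its median; each point is 1 gene, black bars are class medians and the dashed line is the median of all genes tested. The alpha bar lies below 0 only after quantile normalization (-0.12), and the assembly factor bar lies below 0 in all 3 panels.

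Calls followed the scaling as well. With the culture block after quantile normalization, Psmb2 stayed past the threshold for HS+LPS against LPS (limma adjusted p = 0.0362), Psmc3, Psmd13 and Psmd5 did not (0.108, 0.0626 and 0.0567), and Psma6 was called lower (-0.22, 0.0408; 6.4% of all genes higher and 10.0% lower). With the block after centring, 16 members were called higher and 0 lower for HS+LPS against LPS (14.1% and 8.48% of all genes), and Psmd5 did not pass (0.188). These 16 held Psma7, 5 beta subunits (Psmb1, Psmb2, Psmb3, Psmb5, Psmb7), the ATPases Psmc1, Psmc3, Psmc4 and Psmc6, the base genes Psmd1, Psmd2 and Psmd4, and the lid genes Psmd6, Psmd11 and Psmd13. For LPS against Control, Psma6 was called under all 3 scalings with the block (limma adjusted p = 0.0167, 0.00677 and 0.0215), and no other member was called in that comparison; 2.02% of all genes were called higher and 0.704% lower after quantile normalization, and 2.01% and 0.751% after centring.

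LPS alone left the family near all genes. The member median was -0.03 against -0.05 for all genes, with 5 members higher in both cultures and 14 lower (24.7% and 38.5% of all genes). LPS and Control arrays did not overlap for 2 members higher and 7 lower (13.2% and 18.3% of all genes). The class medians were -0.01 for alpha, -0.09 for beta, -0.01 for ATPases, -0.10 for the other base subunits, -0.03 for the lid and 0.09 for the assembly factors. Of the 7 beta subunits, 6 were lower in both cultures as deposited (38.5% of all genes), 4 after quantile normalization (38.6%) and 5 after centring (38.9%). Psmb4 is among these 6 by the probe set used, and its second probe set was mixed (-0.16 and 0.35 in the 2 cultures). Psmb3 is not among them, and its second probe set was lower in both (-0.10 and -0.12).

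HS+LPS against Control shares its arrays with the other comparisons and is given for its own values. The member median was 0.09 as deposited, -0.00074 after quantile normalization and 0.21 after centring, with all-gene medians of -0.09, -0.06 and 0.03. As deposited, the arrays of the groups did not overlap for 13 members higher and 2 lower (14.3% and 31.1% of all genes). This was 6 higher and 5 lower after quantile normalization (15.9% and 27.7%), and 22 higher and 0 lower after centring (24.0% and 21.1%). The assembly factors differed by -0.21 (Psmd5), -0.19 (Psmd9) and -0.31 (Psmd10). Psma6, Psmb2 and Psmd1 were called with the block. After quantile normalization Psma6 remained past the threshold (limma adjusted p = 0.0447) and Psmb2 and Psmd1 did not (0.0503 and 0.0623; 5.09% of all genes called higher and 9.06% lower). After centring 10 members were called higher and 0 lower (8.57% and 6.75% of all genes).

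The cultures also differed from each other. Culture 2 read higher than culture 1 in all 3 groups for 9 members and lower for 12, where 27.9% and 25.6% of all genes did so. Culture 2 minus culture 1 was 0.17 to 0.27 for Psma6, and -0.39 to -0.18 for Psmd8.

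Around the proteasome, a list of 44 symbols (some of them older names of the same gene) for activators, assembly chaperones, shuttles, regulators and other partners gave 33 tested genes. In the limma fit without the block, 0 were called for LPS against Control, 1 was higher and 1 lower for HS+LPS against LPS, and 0 were called for HS+LPS against Control. With the block, 3 were higher and 0 lower for LPS against Control (Psmb8, Psmb10, Nfe2l2), 3 higher and 5 lower for HS+LPS against LPS, and 3 higher and 2 lower for HS+LPS against Control. With the block, the shares of all genes called higher and lower were 2.04% and 0.704%, 6.32% and 12.6%, and 5.06% and 12.1%. Without it they were 0.147% and 0.0%, 0.511% and 0.844%, and 0.17% and 0.00774%. The block after quantile normalization gave the same counts (2.02% and 0.704%, 6.4% and 10.0%, and 5.09% and 9.06% of all genes). After centring it gave 3 and 0, 9 and 5, and 5 and 1 (2.01% and 0.751%, 14.1% and 8.48%, and 8.57% and 6.75% of all genes). The median log2 differences were 0.03, -0.02 and 0.05.

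The gene that moved most was Zfand2a, also called AIRAP, a stress-induced zinc finger protein that associates with the proteasome. It read 370 and 233 in Control, 382 and 268 in LPS, and 1776 and 1249 in HS+LPS, a rise of 2.21 against LPS (limma adjusted p = 0.0347 without the block). Its relative Zfand5 read 663 and 826 in Control, 668 and 901 in LPS, and 842 and 1215 in HS+LPS, and rose by 0.38 against LPS (limma adjusted p = 0.0133 with the block). Ubqln1, a shuttle that carries ubiquitinated proteins to the proteasome, read 1054 and 798 in Control, 1089 and 829 in LPS, and 1538 and 1347 in HS+LPS. It rose by 0.60 (limma adjusted p = 0.0018 with the block). Within each culture the heated array was the highest for all 3 of these genes.

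Lower in HS+LPS than in LPS, with the block, were Psmb8, Psmb10, Uba6, Nfe2l1 and Nfe2l2. Nfe2l1 and Nfe2l2 are transcription factors, and Nfe2l1 drives subunit genes when proteasome activity drops. Nfe2l1 read 431 and 355 in Control, 527 and 461 in LPS, and 363 and 279 in HS+LPS, and fell by 0.62 against LPS (limma adjusted p = 0.00213 with the block). Nfe2l2 read 696 and 809 in Control, 1145 and 1235 in LPS, and 555 and 629 in HS+LPS. It rose by 0.66 in LPS (limma adjusted p = 0.00187 with the block) and fell by 1.01 in HS+LPS against LPS (0.0326 without the block). Uba6, a ubiquitin-activating enzyme, read 580 and 454 in Control, 676 and 540 in LPS, and 377 and 271 in HS+LPS, and fell by 0.91 against LPS (limma adjusted p = 0.000252 with the block).

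None of the 4 tested activators and inhibitor, the 5 assembly chaperones, the 6 associated proteins or the 4 tested genes of the segregase complex was called in any comparison with the values as deposited, with or without the block, or with the block after quantile normalization. With the block after centring, Sem1, Txnl1, Pomp, Uchl5 and Vcp were called higher in HS+LPS than in LPS (limma adjusted p = 0.0134, 0.02, 0.025, 0.0357 and 0.0483), and Pomp and Uchl5 also against Control (0.0234 and 0.0463). Of all genes, 14.1% were called higher in that fit for HS+LPS against LPS and 8.57% for HS+LPS against Control. Pomp, which guides core assembly, read 1585 and 1416 in Control, 1653 and 1420 in LPS, and 1846 and 1572 in HS+LPS. Vcp, the segregase ATPase, read 2412 and 2381 in Control, 2511 and 2274 in LPS, and 2791 and 2424 in HS+LPS. For HS+LPS against LPS, the differences in these lists lay between -0.33 and 0.22.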

How the data were processed

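RNA of 6 samples (2 cultures in 3 groups) was measured on 1-colour arrays. The authors deposited linear intensities that have a mean of 100.001 on every array after trimming 2% at each end; the software that made them is not given in the sources used here. The table held 45101 probe sets, and names came from the platform annotation. From these intensities, log2(intensity + 3.37) was computed, 3.37 being the 25th percentile of all values. The filter on low signal removed the lower 40% of probe sets by mean log2 signal, and 64 control probe sets were removed too, which kept 27022. A gene's brightest probe set with 1 symbol stood for it (12917 genes). All differences are on this log2 scale, which understates changes of dim genes.

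Differences were tested in limma 3.58.1 (R 4.3.3, lmFit, eBayes with an intensity trend) over all 6 arrays, without and with the culture as a block. The threshold was an adjusted p (Benjamini-Hochberg) under 0.05. The fit had 3 residual degrees of freedom without the block and fewer with it. Only the fit without the block was tested on simulated data, which held no culture effect and larger differences than those of the members. The number in a label names the embryo, so it pairs the arrays; deviations from the group means correlated at 0.62, 0.57 and 0.53 between arrays of 1 culture. Values per array are given for members past the threshold, the 5 largest differences per comparison, the brightest and dimmest member of each class and the catalytic subunits, and beyond that rule, chosen after their values were seen, for Psmc4, Psmc6, Psmd11, Pomp, Vcp and Nfkbia. Pseudocounts of 1 and 16, other filters, scalings, probe set rules and leaving out each array were tried, and the block together with a scaling was added after the data were seen. Members, gene lists and tests were chosen with earlier results of these data known.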

Additional observations from a re-analysis of the deposited data

How the results depend on the processing

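Leaving out each array in turn gave 0 members called in every comparison, 0 to 4 genes called over the whole array for LPS against Control (19 with all arrays), 8 to 76 for HS+LPS against LPS (175) and 8 to 14 for HS+LPS against Control (23), and member medians of -0.041 to -0.024, 0.098 to 0.14 and 0.058 to 0.10; a lone array was taken to vary like the other groups. With the replicate block, 1, 4 and 3 members and 354, 2450 and 2214 genes were called in the 3 comparisons. The block with quantile normalization gave 1, 2 and 1 members and 352, 2125 and 1827 genes; the block with median centring gave 1, 16 and 10 members and 357, 2923 and 1979 genes, both chosen after seeing the data. The member medians for HS+LPS against LPS and against Control were 0.029 and -0.00074 after quantile normalization and 0.23 and 0.21 after median centring, with or without the block. Without an intensity trend 5, 85 and 11 genes were called. For HS+LPS against Control, 55 genes were called with a pseudocount of 16, 38 with the filter at the 60th percentile and 47 after median centring. The cause of these shifts was not tested. For the 8 differences called with the block, 0 changed sign in any alternative. Of the 144 alternative values 18 passed the threshold, all with the block. The block fit that picked the 8 is itself among the alternatives, so its 8 passes were fixed beforehand. The rest came from the block with quantile normalization or median centring. A stable sign is a weak check for differences picked by their p-value on the same arrays. Of all 105 differences (35 members in 3 comparisons), 57 changed sign in at least 1 alternative. The 2 arrays per group limit the precision, and a member that did not pass may still have changed.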
